A study of Homo sapiens with 3 samples.

Results

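The immediate-early response and Sprouty feedback genes read here were IER2, IER3, IER5, PHLDA1, BTG2, PLK2, PLK3, SPRY2, SPRED1 and SPRED2. They were taken by gene symbol, and each probe for a transcript that carried one of these symbols in the scanner files was read on every array. All 10 genes were present, with 12 probes, among 41810 genes named on the arrays with 56694 probes. The RNA came from THP-1, a human monocytic leukemia cell line, which the labels describe as differentiated to macrophages with PMA at 100 ng/mL for 24 to 36 h and then kept in fresh medium overnight. All 3 groups shared this differentiation. The Ctrl cells were not stimulated, the IMQ cells received imiquimod, a Toll-like receptor agonist used to evoke psoriasiform inflammation, and the IMQ+X cells received IMQ with a pretreatment that the labels write as X. The title and the treatment protocol name the tested compound as DMD, and X is taken as DMD here. The labels give 4 h for all 3 samples and no dose. One array was hybridized per condition, on 1 slide, so that the differences below come without replicates and without p-values, and condition and array cannot be told apart. A single cell line also limits these arrays as a model of macrophages in tissue.

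Immediate-early genes are transcribed quickly after a cell is stimulated and need no new protein synthesis for it. Mitogen-activated protein kinases and NF-κB are among the pathways that switch them on, and in macrophages Toll-like receptors feed both. Several of the genes encode proteins that act back on the signal or on cell growth, and the Sprouty and SPRED proteins are inhibitors of the Ras and ERK route. The immediate-early response proteins (IER2, IER3, IER5), the antiproliferative factors PHLDA1 and BTG2, the Polo-like kinases PLK2 and PLK3, and the inhibitors SPRY2, SPRED1 and SPRED2 are described in that order.

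The probes on which the results turn are 60 bases long, and their first 30 bases are shown so that each value can be tied to its stretch of transcript. Positions are those of the array design on the hg19 build. Whether each probe lies in a coding or an untranslated exon was not analysed here. IER3 and PHLDA1 had 2 probes each, and the others had 1.
IER3 first probe, chr6:30711312-30711371, minus strand: tgtgagatgttccccctgctgtaaatgcag
IER3 second probe, chr6:30711576-30711635, minus strand: tatccccaactgggacttccgaggcaactt
PHLDA1 first probe, chr12:76419627-76419686, minus strand: tacaggatctaaaagggttttcttagaaag
PHLDA1 second probe, chr12:76426022-76426081, minus strand: ttgctttaacaatcgccctctttccaagaa
BTG2, chr1:203278454-203278513, plus strand: ttttagaagcagcctcatggtctcatgctt
PLK3, chr1:45271594-45271654, plus strand: agacacttatttattgggatgtgagcccca
SPRED1, chr15:38645760-38645819, plus strand: tactgtttatatatttgaatgctgctacaa
The probes of the other genes lay at chr19:13265586-13265645 for IER2, chr1:181059835-181059894 for IER5, chr5:57749993-57750052 for PLK2, chr13:80910622-80910681 for SPRY2 and chr2:65538851-65538910 for SPRED2.

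Each array held 62976 spots, 60901 of them for transcripts. Of the 58201 probes in the deposited table, 72.0% were well above background for Ctrl, 66.6% for IMQ and 71.9% for IMQ+X. The median background-corrected intensity of the transcript spots was 94.5, 61.8 and 76.4 in the same order. The IMQ array was thus the dimmest before normalization. All 12 probes of the 10 genes were well above background on every array, and none was saturated or marked as an outlier spot. Of the macrophage markers, the 6 that were read (ITGAM, CSF1R, SPI1, CD14, TYROBP and FCER1G) were well above background on every array, with a summed normalized intensity of 626334 in Ctrl, 530388 in IMQ and 513801 in IMQ+X. CD68 and LYZ were not analysed here. Among the markers of other cells, the 3 T cell markers summed to between 528 and 598 and the 3 B cell markers to between 3800 and 4671, most of it CD79A. The 3 keratinocyte markers summed to between 106 and 164, the 3 fibroblast markers to between 138 and 170 with COL1A2 not well above background on any array, and the 2 endothelial markers to between 652 and 708. The T cell, B cell, keratinocyte, fibroblast and endothelial sums were each lowest on the IMQ array, and the part of other cells in the results was not tested. In RNA from a whole culture, fewer responding cells and less RNA per cell cannot be told apart.

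Values below are the normalized intensities of the deposited table, given for Ctrl, IMQ and IMQ+X in turn, and differences are on their log2 scale. The error beside a difference is a technical SD, taken from probes of like brightness that are spotted 10 times within an array. The median SD of these repeated spots was 0.048, 0.049 and 0.044 on the 3 arrays over 300 probes. It covers spotting and scanning and leaves out the spread between cultures and hybridizations. Levels of different probes are not compared, since intensity depends on the probe.

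After quantile normalization 8 of the 10 differences between IMQ and Ctrl were above 0 and 2 below, with PHLDA1 and SPRY2 within their technical SD of 0. The difference reached 2-fold for IER3, PLK3 and BTG2 on the higher side and for SPRED1 on the lower side. Over all 30857 genes compared between IMQ and Ctrl, 4.19% were at least 2-fold higher and 3.64% at least 2-fold lower. The median difference of the 10 genes was 0.39 log2, against -0.02 over all genes compared. In IMQ+X against IMQ none of the 10 genes reached 2-fold in either direction, where 1.19% of the 30705 genes compared were at least 2-fold higher and 1.23% at least 2-fold lower. Their median difference there was -0.14 log2 against 0.00 over all genes, with 3 genes above 0 and 7 below. In IMQ+X against Ctrl the same 4 genes reached 2-fold, 3 higher and 1 lower, where 3.08% of 32631 genes were at least 2-fold higher and 4.91% at least 2-fold lower. The median of the 10 was 0.27 log2 against 0.05 over all genes. These comparisons share arrays, since the IMQ array stands in the first and second and the Ctrl array in the first and last, so an error of one array enters 2 of them.

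**Figure D1:**
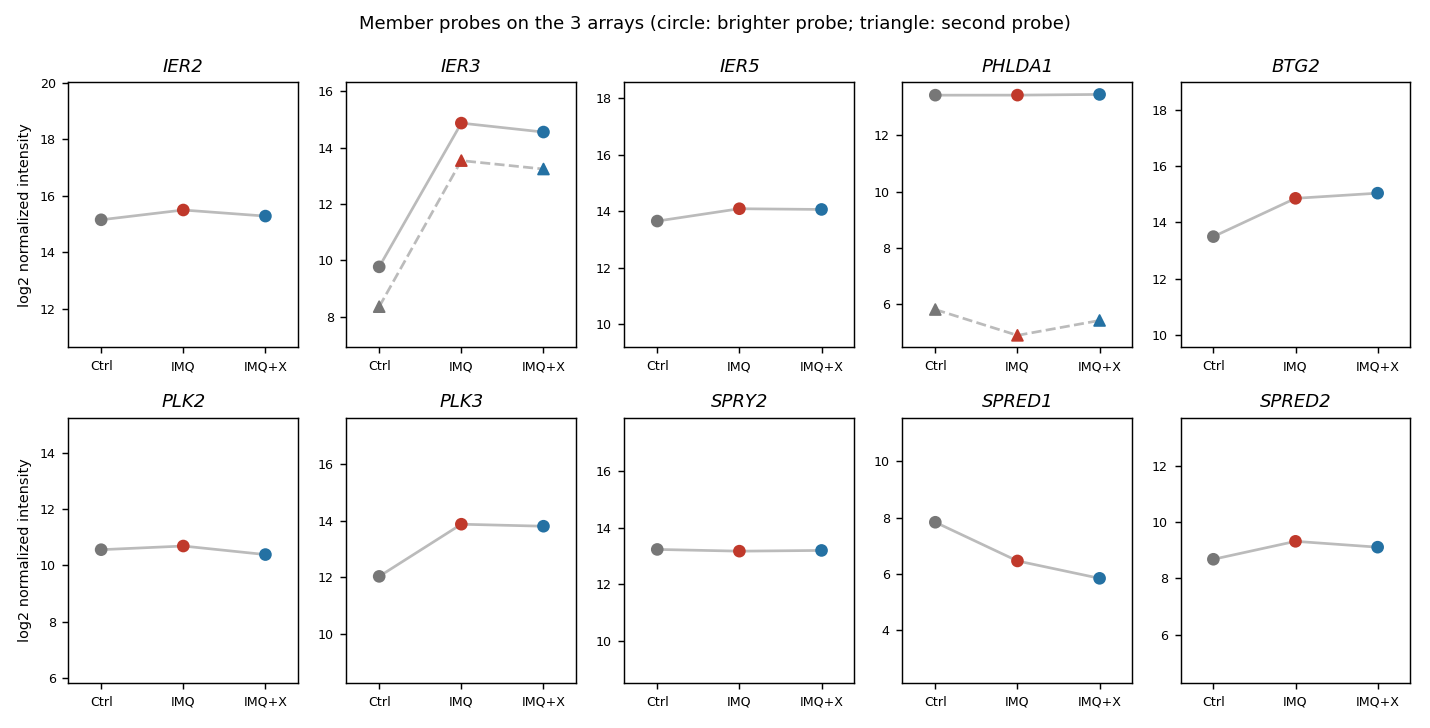
Log2 normalized intensity (vertical axis, the same span in every panel) of the 10 genes on the Ctrl, IMQ and IMQ+X arrays (horizontal axis), 1 point per array and probe, with triangles for the second probe of IER3 and PHLDA1. IER3 stands at 9.77 in Ctrl and at 14.87 and 14.55 in the IMQ and IMQ+X arrays, and SPRED1 steps down from 7.83 to 6.46 and 5.84.

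IER3 encodes a stress-inducible protein that acts on cell survival and on ERK and NF-κB signaling, and it had the largest difference of the 10 genes. Its normalized intensity was 875 in Ctrl, 29930 in IMQ and 24024 in IMQ+X. The IMQ array stood 34.2-fold above Ctrl, a log2 difference of 5.10 ± 0.065 (technical SD), which ranked 19 among the 30857 genes compared. With X the level was 80.3% of the IMQ level, a difference of -0.32 ± 0.056, and it was still 27.5-fold above Ctrl. The second probe, which starts 264 bases away on the genome, read 329, 11908 and 9682. On it IMQ stood at 5.18 ± 0.077 against Ctrl, and IMQ+X at -0.30 ± 0.060 against IMQ. The probes thus gave like differences, 0.08 and 0.02 log2 apart. Both read high in IMQ and IMQ+X and low in Ctrl.

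IER2 and IER5 encode nuclear proteins that take part in transcriptional responses to growth signals and stress. IER2 read 36306 in Ctrl, 46166 in IMQ and 39756 in IMQ+X. IMQ was at 0.35 ± 0.061 against Ctrl and IMQ+X at -0.22 ± 0.055 against IMQ, so the IMQ+X array lay between the other two. IER5 read 12840, 17388 and 17083, with a difference of 0.44 ± 0.061 for IMQ against Ctrl and of -0.03 ± 0.057 for IMQ+X against IMQ. The latter is within the technical SD. These modest differences depended on how the arrays were scaled. IER2 turned to -0.03 for IMQ against Ctrl when the arrays were set by their spike-in controls, where the all-gene median was -0.59.

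BTG2 encodes an antiproliferative protein that recruits the machinery for shortening mRNA tails and is a target of p53. It read 11579 in Ctrl, 29667 in IMQ and 33676 in IMQ+X. The IMQ level was 2.56-fold that of Ctrl, a difference of 1.36 ± 0.059. Between IMQ+X and IMQ it differed by 0.18 ± 0.056, and it stood at 2.91-fold of Ctrl in IMQ+X. Both stimulated arrays were high and Ctrl was low. With spike-in scaling the difference between IMQ and Ctrl was 0.94, short of 2-fold.

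PHLDA1 encodes a pleckstrin homology-like protein that is inducible by ERK signaling and restrains growth and survival signals. Its brighter probe read 10937, 10950 and 11138, which is nearly level over the 3 arrays. IMQ stood at 0.00 ± 0.063 against Ctrl, and IMQ+X at 0.02 ± 0.059 against IMQ. The second probe, designed on another transcript record and starting 6395 bases away, was far dimmer and read 56.4, 29.9 and 43.1. It gave -0.92 ± 0.139 for IMQ against Ctrl and 0.53 ± 0.132 for IMQ+X against IMQ, lowest in IMQ. The probes of PHLDA1 therefore disagreed by 0.92 and 0.50 log2 in these comparisons, and the gene is given by its brighter probe.

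PLK2 and PLK3 are stress-responsive members of the Polo-like kinase family, unlike the mitotic kinase PLK1. PLK3 read 4175 in Ctrl, 15043 in IMQ and 14320 in IMQ+X. The difference was 1.85 ± 0.064 for IMQ against Ctrl, or 3.60-fold, and ranked 353 among the genes compared. With X it was at 95.2% of the IMQ level, a difference of -0.07 ± 0.057, and at 3.43-fold of Ctrl. PLK3 was high in both stimulated arrays, with little between them. PLK2 read 1506, 1648 and 1336, a difference of 0.13 ± 0.069 for IMQ against Ctrl and of -0.30 ± 0.065 for IMQ+X against IMQ. Its lowest level was in IMQ+X. Without normalization between arrays PLK2 stood at -0.26 in IMQ against Ctrl, where the all-gene median was -0.51.

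SPRY2 encodes a Sprouty protein, which blocks receptor tyrosine kinase signaling to Ras and ERK and is itself induced by that route. It read 9602 in Ctrl, 9203 in IMQ and 9368 in IMQ+X. Its differences of -0.06 ± 0.063 and 0.03 ± 0.060 were within the technical SD after quantile normalization. IMQ stood at -0.40 against Ctrl without normalization and at -0.47 with spike-in scaling, where the all-gene medians were -0.51 and -0.59.

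SPRED1 and SPRED2 encode Sprouty-related proteins that hinder the activation of Raf, SPRED1 together with neurofibromin, the product of NF1. SPRED1 was the one gene of the 10 that was at least 2-fold lower in IMQ than in Ctrl. It read 228 in Ctrl, 88.0 in IMQ and 57.4 in IMQ+X. The first step was -1.37 ± 0.113, or 2.59-fold lower, and the second was -0.62 ± 0.123, or 1.53-fold lower. IMQ+X stood 3.97-fold below Ctrl, a difference of -1.99 ± 0.103 that ranked 220 from the low end of 32631 genes. The order was Ctrl, IMQ, IMQ+X from high to low. As a dim probe it depended on the background correction: with normexp and an offset of 50 the difference between IMQ and Ctrl was -0.97, short of 2-fold. The difference between IMQ+X and IMQ ranged from -0.62 to -0.17 over the alternatives. SPRED2 read 410, 637 and 552, with differences of 0.64 ± 0.078 and -0.21 ± 0.073. SPRED2 was thus higher in IMQ than in Ctrl where SPRED1 was lower.

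**Figure D2:**
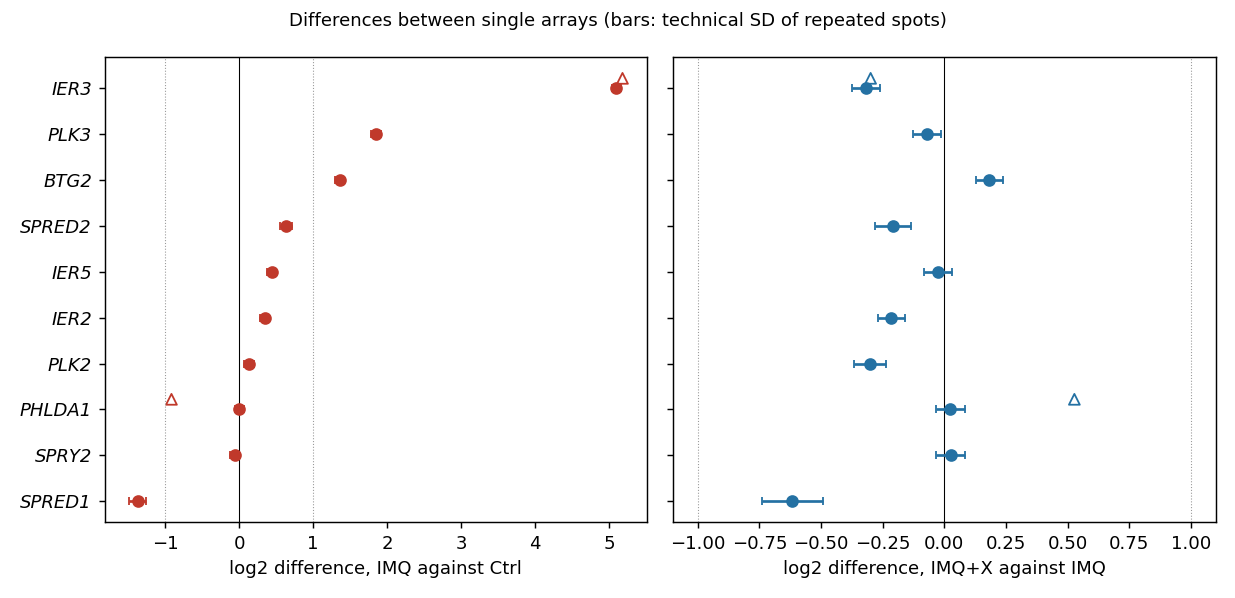
Log2 differences (horizontal axis) of the 10 genes, sorted by their difference between IMQ and Ctrl, for IMQ against Ctrl at left and IMQ+X against IMQ at right. The horizontal scales differ between the panels. Filled points are the probe that stands for the gene with its technical SD, open triangles the second probe, and dotted lines 2-fold. IER3, PLK3, BTG2 and SPRED1 lie beyond 2-fold at left and no gene does at right.

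The levels of these 10 genes also moved with the scaling of the arrays. Without normalization the median difference between IMQ and Ctrl over all genes was -0.51, and with spike-in scaling -0.59, which lowered each of the 10 genes relative to its quantile-normalized value. Set against the all-gene median of the same scaling, the median of the 10 genes lay 0.42 log2 above it after quantile normalization and 0.59 above it both without normalization and with spike-in scaling, with 8, 9 and 9 of the 10 above it. IER3 ranged from 4.67 to 5.18 over all alternatives, PLK3 from 1.45 to 1.97 and BTG2 from 0.94 to 1.46. In IMQ+X against IMQ the median of the 10 lay 0.14 below the all-gene median after quantile normalization and 0.28 below it with spike-in scaling, with 3 and 1 of the 10 above it. BTG2 was above 0 in that comparison under every alternative, from 0.05 to 0.21, and IER3 was below 0, from -0.46 to -0.30. For BTG2 this was close to the shift of all genes under 3 of the scalings. It stood at 0.05 with the 75th percentile, 0.07 without normalization and 0.21 with spike-in scaling. The all-gene medians there were 0.04, 0.06 and 0.20.

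**Figure D3:**
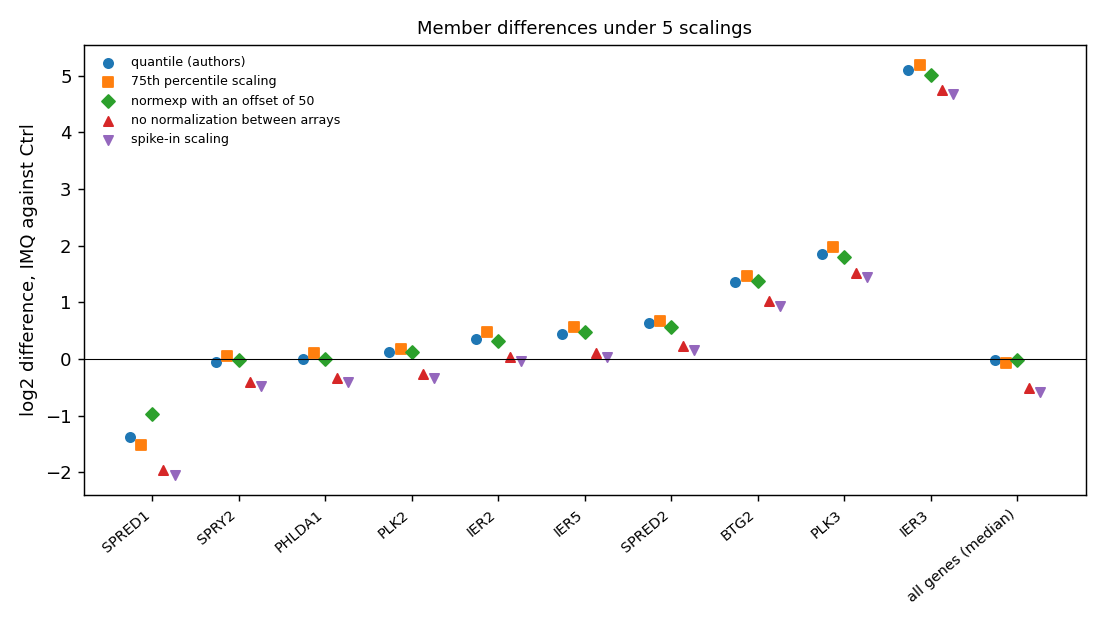
Log2 difference between IMQ and Ctrl (vertical axis) of the 10 genes and the median of all genes (horizontal axis), with 1 marker for each of 5 scalings. IER3, PLK3, BTG2, SPRED2 and IER5 stay above 0 and SPRED1 below 0 under the scalings drawn, while IER2, PLK2, PHLDA1 and SPRY2 lie on either side of it.

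The closest relatives of the 10 genes, from the same protein families, were read from a list of 15. BTG4 and SPRED3 were not well above background on any array, and 13 were compared. Of these, 3 were at least 2-fold higher and 1 at least 2-fold lower in IMQ than in Ctrl, with a median of 0.30. TOB1, an antiproliferative relative of BTG2, read 1835, 6279 and 5009, a difference of 1.78 for IMQ against Ctrl. SPRY4, another Sprouty, read 124, 304 and 231, a difference of 1.29. IER5L, a paralog of IER5, read 2831, 6405 and 5748, a difference of 1.18. Neither held on its other probe, which gave -0.07 for SPRY4 and 0.21 for IER5L, so these differences belong to 1 probe of 2. The Polo-like kinases for centriole copying and mitosis went the other way. PLK4 read 384, 156 and 134, a difference of -1.30, and PLK1 read 313, 159 and 124, a difference of -0.97. The other probe of PLK1 was past 2-fold, at -1.11. With X the probes of PLK1 differed in sign against IMQ, at -0.36 and 0.10. By the mean of all probes 2 relatives were at least 2-fold higher and 2 lower in IMQ than in Ctrl. SPRY1 was at 0.56, PLK5 at 0.52, BTG1 at 0.31, BTG3 at 0.30, PHLDA2 at 0.26, SPRY3 at 0.03, TOB2 at -0.15 and PHLDA3 at -0.67 for IMQ against Ctrl. PLK5, BTG1, BTG3 and PHLDA2 were below 0 with spike-in scaling, and SPRY3 was likewise at -0.58. Under it 1 of the 13 was at least 2-fold higher and 3 lower. Over all genes 511 of 31876 were then higher and 6060 lower, with a median of -0.59. The median of the relatives lay 0.48 above that of all genes. With X none of the relatives reached 2-fold against IMQ on the probe that stands for the gene, and 2 were above 0 and 11 below, with a median of -0.18. With the mean of all probes 1 was at least 2-fold lower, SPRY1, at -1.02.

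The Sprouty family thus held genes that differed in their levels after IMQ. SPRY4 was more than 2-fold higher on 1 of its 2 probes, SPRY1 higher by 0.56 and SPRED2 higher by less than 2-fold. SPRED1 was more than 2-fold lower, except with normexp. SPRY2 and SPRY3 were near level, and both were below 0 with spike-in scaling, where the all-gene median was -0.59. The second probe of SPRY1 gave 3.29, well above the probe that stands for the gene, but its Ctrl reading was not well above background. With X, SPRY4 stood at -0.40, SPRY1 at -0.18, SPRY2 at 0.03 and SPRY3 at 0.08 log2 against IMQ. The other probes gave 0.38 for SPRY4, -1.86 for SPRY1 and 0.69 for SPRY3, so the sign for SPRY4 differed between its probes. Whether these family members truly differ from each other could not be tested with 1 array per condition.

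The route that the Sprouty and SPRED proteins restrain was read from a list of 21 genes of the ERK cascade, from the Ras proteins and their exchange factors to the kinases. None was at least 2-fold higher or lower in IMQ than in Ctrl, with a median of 0.04. With spike-in scaling 2 were lower, with a median of -0.42. Over all genes 6060 of 31876 were at least 2-fold lower under that scaling, with a median of -0.59. None of the 21 reached 2-fold in IMQ+X against IMQ, with a median of 0.01. RASA1, which switches Ras off, was the one gene at least 2-fold lower in IMQ+X than in Ctrl. It read 3454, 1907 and 1446, with differences of -0.86 for IMQ against Ctrl and -1.26 for IMQ+X against Ctrl. NF1, the partner of SPRED1, read 559, 739 and 606. The serum response factor SRF and its partners, transcription factors that act on many immediate-early genes, were 6 genes. None reached 2-fold in any of the 3 comparisons of quantile-normalized values. Their medians were -0.36, -0.05 and -0.39 in IMQ against Ctrl, IMQ+X against IMQ and IMQ+X against Ctrl. Without normalization, and likewise with spike-in scaling, 3 were at least 2-fold lower for IMQ against Ctrl and 2 for IMQ+X against Ctrl. Over all genes 5033 of 31928 and 6060 of 31876 were then lower for IMQ against Ctrl. For IMQ+X against Ctrl 3349 of 32417 and 2921 of 32522 were lower. The medians of the 6 for IMQ+X against Ctrl were then -0.83 and -0.76, against all-gene medians of -0.32 and -0.26. With the mean of all probes the median of the 6 for IMQ+X against Ctrl was 0.0059. The dimmer probe of MKL2, a partner of SRF, was past 2-fold in IMQ+X, at 1.19 against IMQ and 1.05 against Ctrl, where its brighter probe gave 0.14 and -0.53.

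The immediate-early transcription factors were the list nearest in kind to the IER genes. Of 10, EGR3 was not well above background on any array and 9 were compared. In IMQ against Ctrl 5 were at least 2-fold higher and none lower, with a median of 1.24. EGR1 read 323, 1567 and 1111, a difference of 2.28. JUNB was at 1.46, ATF3 at 1.40, FOSB at 1.39 and FOS at 1.24. ATF3 had 4 probes, of which 1 gave -0.16. FOSB had a dim probe and was at 0.57 with normexp, short of 2-fold. With spike-in scaling 2 of the 9 were at least 2-fold higher, EGR1 and ATF3, and 1 lower. Over all genes 511 of 31876 were then higher and 6060 lower. The list did not move one way with X. None reached 2-fold against IMQ, with FOS at -0.60 and EGR1 at -0.50 but ATF3 at 0.51. Against Ctrl, 6 were at least 2-fold higher in IMQ+X, with FOSL1 at 1.12 and EGR2 at 1.19 past 2-fold there and FOS, at 0.63, short of it. Scaled by the spike-in probes, or not at all, 3 of the 9 stood past 2-fold above Ctrl and 1 below it. FOSL1 and EGR2 were short of 2-fold, at 0.66 and 0.70 without normalization. Over all genes, 554 of 32522 were then higher and 2921 lower by the spike-in probes. Without normalization 498 of 32417 were higher and 3349 lower.

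BTG2, PLK2 and PLK3 are known targets of p53, and 12 other p53 targets were read beside them. In IMQ against Ctrl 2 were at least 2-fold higher and 2 lower, with a median of 0.07. CDKN1A, the cell cycle inhibitor p21, read 986, 2411 and 2794, a difference of 1.29, and SESN2 was at 1.45. SESN1 was at -1.47 and GADD45A at -1.07. The p53 targets thus included genes on both sides. With spike-in scaling CDKN1A and SESN2 were short of 2-fold, at 0.84 and 0.93. The apoptosis gene BAX was at least 2-fold lower in IMQ+X than in IMQ, at -1.16, and its other probe was at 0.16. The median of the 12 was -0.17 in IMQ+X against IMQ, but -0.07 without normalization and 0.07 with spike-in scaling. Set against the all-gene median of the same scaling, it lay at -0.17, -0.13 and -0.13. The counts for IMQ+X against Ctrl were 2 higher and 1 lower. They turned to 1 higher and 4 lower without normalization and to 1 and 3 by the spike-in probes. Over all genes, 498 of 32417 were then higher and 3349 lower without normalization. By the spike-in probes 554 of 32522 were higher and 2921 lower.

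IER3 is a known target of NF-κB, and 6 genes that inhibit or process NF-κB were read beside it. In IMQ against Ctrl 4 were at least 2-fold higher and none lower, with a median of 1.71. NFKBIA, which encodes the inhibitor IκBα, read 6863, 79557 and 72142, a difference of 3.54. TNIP1 was at 2.12 and TNFAIP3 at 1.93, and NFKB2 was the fourth. The count of 4 stood under all 5 scalings drawn above. The addition of X left none past 2-fold against IMQ, with values from -0.14 to 0.12, and again 4 were higher and none lower in IMQ+X than in Ctrl.

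**Figure D4:**
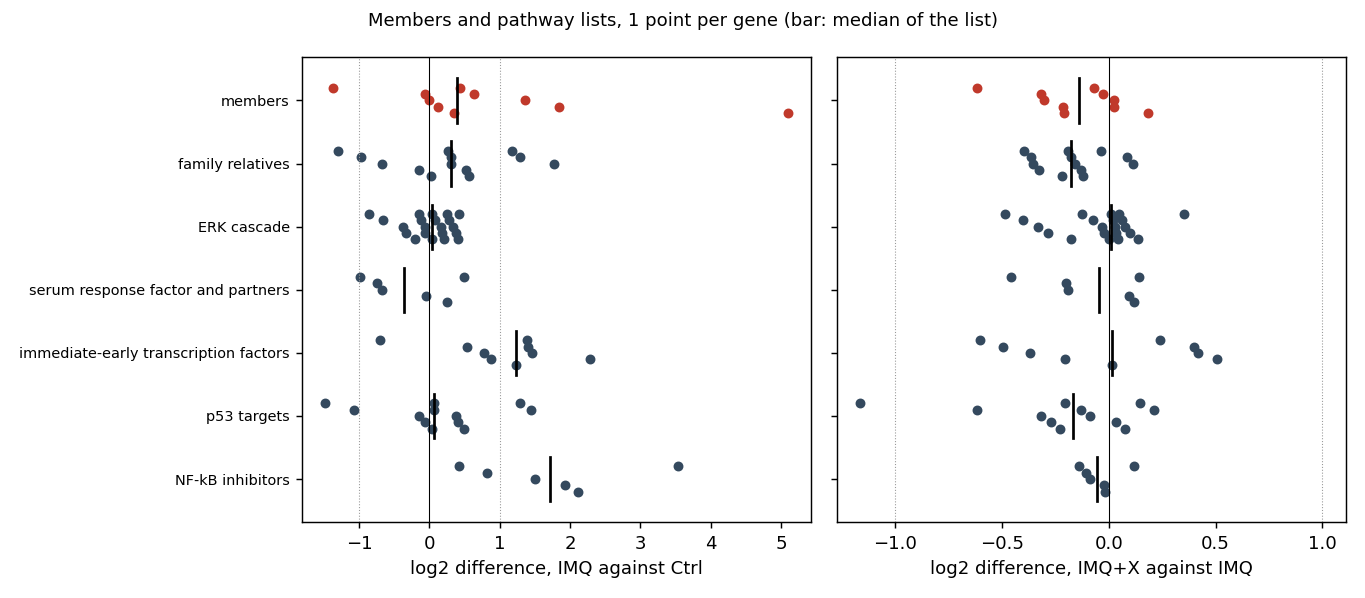
Log2 differences (horizontal axis) of the 10 genes (members, red) and of 6 pathway lists (rows), 1 point per gene, for IMQ against Ctrl at left and IMQ+X against IMQ at right, with scales that differ between panels. Bars are list medians and dotted lines 2-fold. The NF-κB inhibitors and immediate-early transcription factors have medians of 1.71 and 1.24 at left and of -0.05 and 0.02 at right.

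The promoters of the genes that stood 2-fold apart together are shown for their sequence features. In the RefSeq promoter table, on the GRCh38.p14 build, 9 of the 10 genes matched, all but IER3, with 12 windows in all, 3 for SPRY2 and 2 for SPRED2. The 250 bases before each start were searched on both strands for the CArG box bound by serum response factor, the κB motif, the AP-1 motif TGANTCA, the CRE half-site TGACG and the GC box GGGCGG. In the sequences the capitals mark the GC boxes and the CRE half-sites, on either strand.
BTG2 promoter, chr1:203305269-203305518, plus strand: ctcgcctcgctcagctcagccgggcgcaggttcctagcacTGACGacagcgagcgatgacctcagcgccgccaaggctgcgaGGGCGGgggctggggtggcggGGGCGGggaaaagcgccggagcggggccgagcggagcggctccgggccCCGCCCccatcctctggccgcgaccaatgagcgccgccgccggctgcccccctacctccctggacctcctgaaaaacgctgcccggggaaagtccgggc
PLK3 promoter, chr1:44800127-44800376, plus strand: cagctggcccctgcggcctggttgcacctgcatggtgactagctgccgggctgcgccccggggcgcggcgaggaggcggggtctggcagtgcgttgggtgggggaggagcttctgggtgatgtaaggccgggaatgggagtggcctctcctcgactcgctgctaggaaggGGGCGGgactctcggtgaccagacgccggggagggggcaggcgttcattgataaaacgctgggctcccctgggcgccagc
SPRED1 promoter, chr15:38252586-38252835, plus strand: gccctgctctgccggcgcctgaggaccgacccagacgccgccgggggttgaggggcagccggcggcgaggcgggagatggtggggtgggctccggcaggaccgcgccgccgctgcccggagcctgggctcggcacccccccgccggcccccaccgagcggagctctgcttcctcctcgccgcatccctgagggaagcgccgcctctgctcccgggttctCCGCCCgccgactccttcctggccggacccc
These windows were rich in G and C, at 74.8% for BTG2, 70.0% for PLK3 and 78.4% for SPRED1, where the median of all 35116 windows of this length was 58%. They held 30, 19 and 30 CpG dinucleotides against a median of 11. The GC box was present in 7 of the 12 windows, or 58.3%, among them BTG2 with 3 copies and PLK3 and SPRED1 with 1 each, and in 42.6% of all windows. The CRE half-site was present in 4 of the 12, or 33.3% (1 window each of IER2, BTG2, PLK2 and SPRY2), and in 21.2% of all windows. The CArG box, the κB motif and the AP-1 motif were found in none of the 12, and in 1.16%, 9.96% and 6.57% of all windows, which says only that these letters are not in these windows.

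The genes whose pattern lay closest to that of IER3 were found by the Euclidean distance over the pair of differences, IMQ against Ctrl and IMQ+X against IMQ, among 18099 other genes well above background on all 3 arrays, leaving out names that start as provisional, transcript or long non-coding RNA records do (LOC, XLOC, ENST, lnc- and LINC). The nearest was SLC43A2, an amino acid transporter, at 5.11 and -0.44 log2 and a distance of 0.13. It was followed by the chemokine gene CCL3L3, at 5.05 and -0.14 and a distance of 0.18, and the cytokine gene IL11, at 4.86 and -0.50 and a distance of 0.30. The distance rests on 3 arrays and is a description.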

How the data were processed

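RNA from 3 THP-1 samples was hybridized to one-colour Agilent arrays (Cy3, 60-base probes). Per the file headers, the authors scanned them with Feature Extraction 10.5.1.1, which gave background-corrected intensity per spot, and the deposited series table holds the raw intensity and the intensity after quantile normalization. Quantile normalization makes the arrays' distributions equal and so removes any shift common to all genes. The design of the array is on hg19. The values used are log2 of the normalized intensity of that deposited table, computed here with Python 3.11.15. Each array's floor was the lowest value of its probes well above background, and dimmer probes below it were set to it. A probe entered a comparison if its brighter array measured it well. Where a gene had several probes, the brightest on average (mean log2) stood for it. A difference counted at 2-fold. With 1 array per condition no test was run, and precision is limited by how few arrays there are.

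The members and the lists were chosen with earlier results of these data known. All members and each of their probes are named, as are family relatives, genes of the lists past 2-fold, and the 3 genes nearest to the member with the largest difference between IMQ and Ctrl. NF1, SRF, MKL2, EGR3 and values short of 2-fold of genes in the lists were added after their values were seen. Alternatives tried were a 75th percentile scaling, scaling to 8 spike-in probes or not at all, an own quantile normalization, normexp with an offset of 50 (limma 3.58.1 in R 4.3.3), filters on dim probes, other probe rules and other thresholds. The calculation was run on simulated arrays, where 200 of 200 probes changed 4-fold between IMQ and Ctrl were recovered among 41915 probes compared. The changed probes were drawn from bright ones only, and 4-fold lies well past the 2-fold cut. This recovery therefore checks the arithmetic and says nothing of dim probes such as that of SPRED1. Calls among the unchanged probes are not given here.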

Additional observations from a re-analysis of the deposited data

How the results depend on the processing

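No paired analysis was possible because each condition has 1 array. The filters on dim probes could not move any of the 10 genes, whose probes were bright enough on every array, and the probe rules could move IER3 and PHLDA1 alone. Over the 162 differences of single genes that were counted, 82 moved by less than the technical SD and 80 by more. Part of the 82 could hardly move. The own quantile normalization repeats the method of the deposited values and differed from them by a median of 0.001 log2 on each array. The rule of the highest linear mean left IER3 and PHLDA1 unchanged. The sign changed in 21 of the 162. Of these, 17 started within 2 technical SD of 0 (PHLDA1, SPRY2, PLK2 and IER5) and 4 further out. For IMQ against Ctrl, IER2 reversed to -0.033 with spike-in scaling. For IMQ+X against Ctrl, IER2 reversed to -0.28 when not normalized and to -0.22 by the spike-in probes, and IER5 to -0.036 without normalization. The median of the 10 genes for IMQ against Ctrl was 0.52 with scaling to the 75th percentile, 0.075 when not normalized and 0.0037 by the spike-in probes. For IMQ+X against IMQ it was -0.24 with the 75th percentile and -0.22 without normalization. For IMQ+X against Ctrl it reversed, to -0.16 when the arrays were not normalized and to -0.10 by the spike-in probes. The all-gene medians there were -0.32 and -0.26. Set against them, the median of the 10 genes lay 0.17 and 0.16 above, and 0.22 above after quantile normalization. In each of these, 6 of the 10 were above the all-gene median. The genes at least 2-fold lower in IMQ against Ctrl went from 1 to 0 with normexp and with a 3-fold threshold, and those lower in IMQ+X against IMQ from 0 to 1, SPRED1, with a 1.5-fold threshold.

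The balance of all genes past 2-fold also depended on the scaling. For IMQ against Ctrl, 1292 higher and 1124 lower became 567 and 5033 when not normalized, 511 and 6060 by the spike-in probes and 1142 and 1465 with the 75th percentile, while normexp gave 579 and 602. For IMQ+X against IMQ, 364 and 379 became 1323 and 170, 2133 and 120 and 1212 and 183 in the same order, while normexp gave 19 and 28. For IMQ+X against Ctrl, 1004 and 1602 became 498 and 3349, 554 and 2921 and 1173 and 1425, while normexp gave 521 and 806. Spike-in scaling moved the all-gene median to 0.20 for IMQ+X against IMQ. Which scaling is nearest to the RNA content of the cells was not tested. Dim probes, as those of SPRED1 and the second probe of PHLDA1, carry the largest technical SD.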
